A study of Homo sapiens with 12 samples.

Results

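The 10 genes described here, CDH1, EPCAM, ESRP1, VIM, CDH2, ZEB1, ZEB2, SNAI1, SNAI2 and TWIST1, are those commonly read as marks of epithelial or mesenchymal identity. They were chosen by name, and each was found as a single entry among the 58037 genes of the count table. RNA-seq was performed on 12 samples of 2 prostate cancer lines, with 3 samples in each of 4 groups. All samples carried tet-MUC1shRNA, a doxycycline (DOX)-inducible short hairpin RNA against MUC1, and were treated for 7 days with vehicle or with 500 ng/ml DOX. DU-145 is an established line from a metastasis of prostate carcinoma, and the study kept it in medium with heat-inactivated fetal bovine serum. LNCaP-AI was selected from C4-2B cells, themselves derived from LNCaP, by long culture without androgen, and is kept in phenol red-free medium with charcoal-stripped serum. The sample labels call the groups shCTL and shMUC1, whereas the study describes vehicle and DOX treatment of the same cells, and the latter names are used here. Control-hairpin cells given DOX were not analysed here, and effects of DOX and of the hairpin cannot be told apart.

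Epithelial cells are held together by E-cadherin, which CDH1 encodes, and keep their identity in part through ESRP1, an RNA-binding protein that directs epithelial splicing. In the epithelial-mesenchymal transition (EMT) these genes are turned down, while mesenchymal genes such as VIM and CDH2 are turned up. The transcription factors ZEB1, ZEB2, SNAI1, SNAI2 and TWIST1 repress CDH1, and ZEB1 and ZEB2 are themselves targets of the miR-200 family of microRNAs. Prostate carcinoma lines differ widely in where they stand between these states.

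Total counts ranged from 10423437 to 13544153 in DU-145 and from 16569613 to 26961777 in LNCaP-AI samples, so the same count stands for a lower level in LNCaP-AI. Levels are given as CPM, counts relative to library size, after TMM normalization over the 12 samples, and a library with 3 counts or fewer was taken to be at the floor, which covers counting error only. MUC1, the targeted gene, had 74, 60 and 59 counts in DU-145 vehicle samples and 3 in every DOX sample. In LNCaP-AI the vehicle samples had 36, 25 and 52 counts of MUC1 and the DOX samples had 8, 6 and 3. Of 7 luminal prostate genes, 6, among them KLK3, had no count in DU-145 vehicle samples, and all 7 were counted in LNCaP-AI. The LNCaP-AI samples did not divide by treatment. On log2 CPM, the first principal component took 82.5% of the variance and placed vehicle 1, DOX 2 and DOX 3 (side A) apart from vehicle 2, vehicle 3 and DOX 1 (side B). No label or method used here gives a batch that matches these sides. In all, 35.2% of the 16030 genes tested in LNCaP-AI did not overlap between them. The DOX effects of genes named in LNCaP-AI are therefore given within the sides too where counts allow, whereas counts over lists of genes are not.

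**Figure D1:**
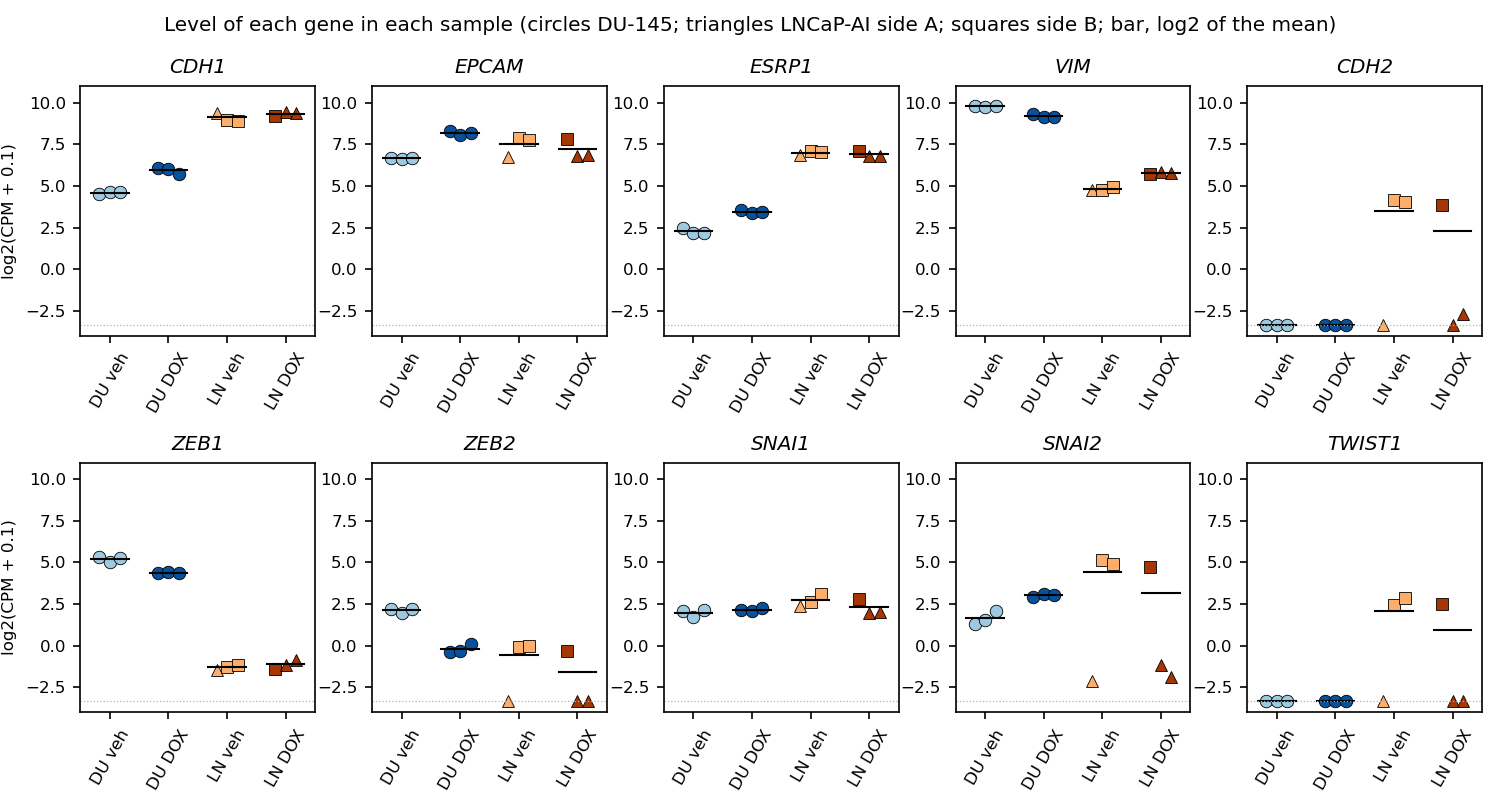
Level of each of the 10 genes in each of the 12 samples, as log2(CPM + 0.1), for DU-145 (DU) and LNCaP-AI (LN) cells with vehicle (veh) or DOX. Circles are DU-145 samples, triangles and squares are LNCaP-AI samples of sides A and B, bars are the log2 of the group mean, and the dotted line is a level of 0. CDH2, TWIST1, ZEB2 and SNAI2 stand high in the 3 squares and at or near 0 in the 3 triangles of LNCaP-AI, whatever the treatment.

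The first question was which of these genes differed with DOX in DU-145 cells. All 3 epithelial genes rose, VIM, ZEB1 and ZEB2 fell, and SNAI2, a factor of the mesenchymal program, rose as well. By edgeR's quasi-likelihood test, 7 of the 8 genes tested had an adjusted p under 0.05, 4 higher and 3 lower with DOX. Of all 13644 genes tested in DU-145, 51.5% were called, 26.3% as higher and 25.3% as lower, so a call by itself is common in this line. CDH2 and TWIST1 had 0 counts in all 6 DU-145 samples and were not tested. In cultures sequenced in bulk, fewer cells of a type and less RNA per cell cannot be told apart.

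CDH1 lies on chromosome 16 of GRCh38 (chr16:68737292-68835537, plus strand). It had 23.2, 24.9 and 24.6 CPM in the vehicle samples of DU-145 and 66.9, 63.9 and 51.8 CPM in the DOX samples. All 3 DOX samples exceeded the highest vehicle sample, by more than the spread within either group. The log2 fold change was 1.34 (SE 0.095, adjusted p = 1.23e-09 by edgeR), a 2.53-fold rise. A processed pseudogene on the same strand inside CDH1, FTLP14, had at most 4 counts in any DU-145 sample.

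EPCAM encodes the epithelial cell adhesion molecule, a surface protein of most epithelia (chr2:47345158-47387601, plus strand). Its level was 104, 96.8 and 104 CPM with vehicle and 316, 267 and 289.7 CPM with DOX in DU-145. The groups were far apart, and the log2 fold change of 1.52 (SE 0.0753, adjusted p = 1.03e-11 by edgeR) was the largest rise of the 10 genes. ESRP1 (chr8:94641074-94707466, plus strand) was at 5.4, 4.35 and 4.45 CPM with vehicle and 11.9, 10.2 and 10.7 CPM with DOX. It rose 2.31-fold (log2 fold change 1.20, SE 0.151, adjusted p = 2.07e-06 by edgeR), again without overlap. All 3 epithelial genes thus differed in the same direction and by similar factors, 2.31- to 2.87-fold.

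VIM encodes vimentin, the intermediate filament protein of mesenchymal cells (chr10:17228241-17237593, plus strand). DU-145 vehicle samples had 902, 845 and 882 CPM, against 642, 569 and 557 CPM with DOX. The decrease was small beside the rises above, 1.48-fold (log2 fold change -0.57, SE 0.0753, adjusted p = 4.16e-06 by edgeR), but no DOX sample reached a vehicle sample. The change was thus the smallest of the 7 called in this line. VIM-AS1, a gene on the opposite strand that overlaps VIM, had 14, 28 and 26 counts with vehicle and 22, 23 and 25 with DOX, without a called difference (log2 fold change 0.02, adjusted p = 0.971 by edgeR).

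ZEB1 (chr10:31318495-31529814, plus strand) and ZEB2 (chr2:144364364-144521057, minus strand) encode paired zinc-finger repressors of CDH1. ZEB1 stood at 39.7, 32.2 and 38.4 CPM with vehicle and at 20.4, 21.7 and 20.7 CPM with DOX in DU-145. It fell 1.75-fold (log2 fold change -0.81, SE 0.0947, adjusted p = 8.56e-07 by edgeR), with a narrow spread among the DOX samples. ZEB2 was sparsely counted, at 55, 37 and 54 counts in vehicle and 7, 9 and 11 counts in DOX samples. Its log2 fold change of -2.43 (SE 0.273, adjusted p = 5.17e-07 by edgeR) was the largest change of any of the 10 genes in DU-145, a 5.4-fold decrease. Fitted together with the LNCaP-AI samples, whose spread for this gene is wide, ZEB2 kept its fold change but lost its call (adjusted p = 0.108 by edgeR). ZEB1-AS1, which overlaps the start of ZEB1 on the opposite strand, had 46, 28 and 40 counts with vehicle and 14, 26 and 18 with DOX, and fell as well (log2 fold change -0.99, SE 0.251, adjusted p = 0.00285 by edgeR). The libraries were stranded, but how strand was used in counting is not given in the sources used here.

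The Snail genes did not move with the ZEB genes in DU-145. SNAI2 encodes Slug (chr8:48917598-48921740, minus strand). Its counts were 29, 28 and 50 in vehicle and 78, 108 and 92 in DOX samples, or 3.13 ± 0.947 and 8 ± 0.585 CPM (SD, n = 3 each). This was a 2.56-fold rise (log2 fold change 1.35, SE 0.196, adjusted p = 1.13e-05 by edgeR), opposite in direction to ZEB1, ZEB2 and VIM. Fitted with all 12 samples, its call was lost (adjusted p = 0.62 by edgeR) at the same fold change. SNAI1, which encodes Snail (chr20:49982980-49988886, plus strand), had 50, 32 and 51 counts with vehicle and 45, 52 and 54 with DOX. These groups overlapped, and the log2 fold change of 0.17 (SE 0.193, adjusted p = 0.486 by edgeR) did not pass the test.

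**Figure D2:**
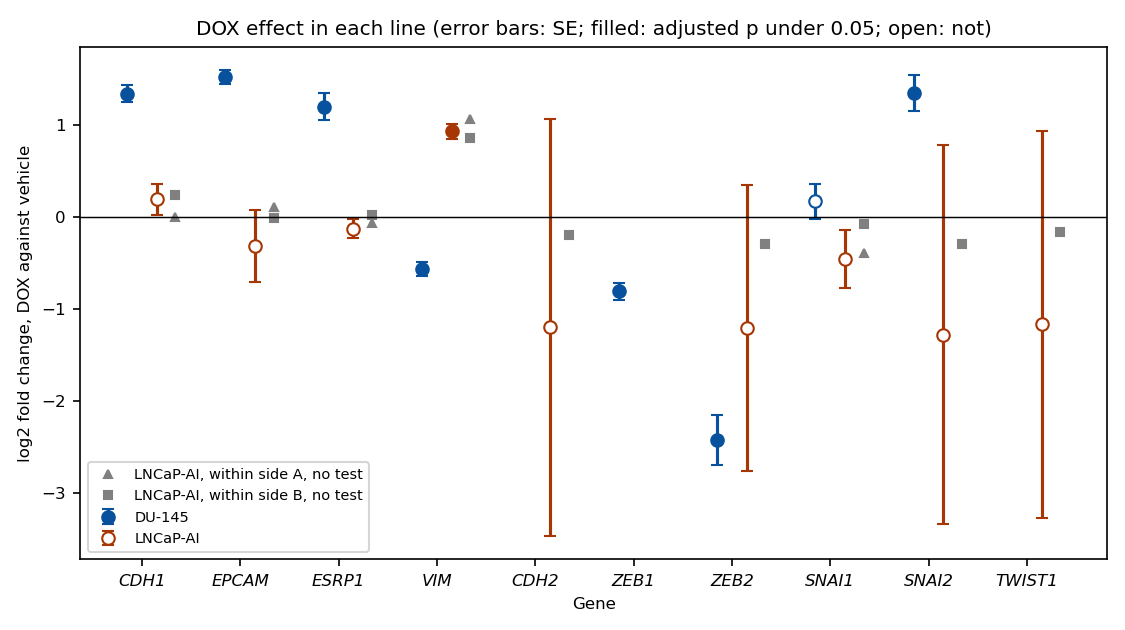
Log2 fold change of each gene with DOX in DU-145 (blue) and LNCaP-AI (brown), with a standard error derived from edgeR's F statistic. Filled points have an adjusted p under 0.05, and grey triangles and squares are the differences in mean log2 CPM within sides A and B of LNCaP-AI, without a test and drawn only where every sample of the side had more than 3 counts, ZEB1 left out. CDH1, EPCAM and ESRP1 lie above 1 in DU-145 and near 0 in LNCaP-AI, VIM lies on opposite sides of 0, and genes with fewer than 10 counts in most samples of a line have no fitted point there.

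The miR-200 family connects the ZEB genes to a transcript that the table does count. MIR200CHG, on chromosome 12 (6963226 to 6964447, plus strand), hosts miR-200c and miR-141. The mature sequences from RefSeq (GRCh38.p14) are shown because their seeds, bases 2 to 8 counted from the 5′ end and written in capitals, define what they pair with, and miR-205-5p, hosted by MIR205HG on chromosome 1, is shown beside them.
hsa-miR-200c-3p: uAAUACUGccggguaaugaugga
hsa-miR-141-3p: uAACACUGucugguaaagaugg
hsa-miR-205-5p: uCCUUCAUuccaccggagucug
The first pair of seeds differ by the substitution U4C, and that of miR-205-5p is unrelated. The mature microRNAs themselves were not measured by these libraries.

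The 3′ untranslated regions of ZEB1 and ZEB2 were searched on the sense strand for the complements of these seeds, CAGTATT for miR-200c-3p and CAGTGTT for miR-141-3p, which do not overlap each other. The ZEB1 region of 2540 bases held 6 and 3 matches, and the ZEB2 region of 5370 bases held 5 and 4. Of 4301 such regions at least as long as that of ZEB1, 0.186% held 9 or more matches, and of 1067 at least as long as that of ZEB2, 0.562% did. For each gene, the first match of each kind is printed 5′ to 3′ with the match in capitals, from GENCODE 44 transcripts on GRCh38.
ZEB1, chr10:31527619-31527640, plus strand: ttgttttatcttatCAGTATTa
ZEB1, chr10:31528032-31528053, plus strand: aaaatcatcagaatCAGTGTTt
ZEB2, chr2:144389052-144389073, minus strand: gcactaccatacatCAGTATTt
ZEB2, chr2:144389236-144389257, minus strand: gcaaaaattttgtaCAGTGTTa
A match of letters is a description of the transcript and does not show that it was used in these cells.

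MIR200CHG was barely counted in DU-145, with 3, 1 and 3 counts with vehicle and 11, 14 and 6 with DOX. Too few samples reached 10 counts for a test. The pooled counts of 7 and 31 gave a ratio of 4.35 relative to library size, with an exact 95% binomial interval of 1.88 to 11.7 that covers counting error only. Its level was higher in LNCaP-AI, at 2.32, 2.51 and 2.12 CPM with vehicle and 5.13, 5.99 and 5.41 CPM with DOX. There the groups did not overlap, and the 2.33-fold rise was called (log2 fold change 1.22, SE 0.163, adjusted p = 0.0141 by edgeR), with 1.25 within side A and 1.11 within side B. It lost its call when DOX 2 (adjusted p = 0.0915) or DOX 3 (adjusted p = 0.0862) was left out of the edgeR fit. Each of those fits called only 1 of all genes.

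ZEB and SNAI proteins bind E-boxes, of which CAGGTG is the form best known for them. RefSeq promoter windows were at hand for ZEB1, ZEB2, VIM and CDH2, and the 250 bases before each start were searched for CAGGTG on both strands (CACCTG on the other). The motif stood in 2 of 7 windows of ZEB1 and in none of the 1, 1 and 2 windows of ZEB2, VIM and CDH2, against 17.5% of all 35116 windows. The window before the first RefSeq start of ZEB1 is printed with its match, 57 bases before that start, in capitals. It covers chr10:31318167-31318416 on the plus strand of GRCh38.p14.
ZEB1: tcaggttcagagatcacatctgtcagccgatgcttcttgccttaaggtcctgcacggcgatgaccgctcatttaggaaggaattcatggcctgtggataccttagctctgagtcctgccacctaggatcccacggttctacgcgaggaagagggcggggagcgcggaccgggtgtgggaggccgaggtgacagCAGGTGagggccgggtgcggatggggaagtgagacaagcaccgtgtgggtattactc
These are letters in a window, and absence elsewhere says nothing of the factors.

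In LNCaP-AI cells, DOX was associated with a called difference in 1 of the 9 genes tested, VIM, and it was a rise. Of all 16030 genes tested in this line, 12.7% were called, 7.22% as higher and 5.52% as lower. VIM had 27, 27.2 and 30.3 CPM with vehicle and 52.1, 56.7 and 55.8 CPM with DOX. The groups did not overlap and the log2 fold change was 0.93 (SE 0.0833, adjusted p = 0.0123 by edgeR), a 1.91-fold rise from a level far below that of DU-145. Within the sides the difference in log2 CPM was 1.06 (A) and 0.86 (B). The call was lost without DOX 2 (adjusted p = 0.0854) or DOX 3 (adjusted p = 0.0829) in the edgeR fit, while the log2 fold change stayed between 0.90 and 1.00 in all 6 fits that left out a sample. Without DOX 2 or DOX 3, only 1 of all genes was called. With the side entered as a covariate, a fit chosen after the division was seen, the estimate for VIM was 0.92 (log2, adjusted p = 1.24e-08 by edgeR). In that fit 39.1% of all genes were called, and VIM was again the only one of the 9, the others having adjusted p from 0.158 to 0.9.

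The epithelial genes of LNCaP-AI were high with and without DOX. CDH1 had 679, 494 and 487 CPM with vehicle and 578, 697 and 664 CPM with DOX, and the groups overlapped (log2 fold change 0.19, SE 0.167, adjusted p = 0.488 by edgeR). It was lower in side B, at 487 to 578 CPM against 664 to 697 CPM in side A, and differed with DOX by 0.00 (A) and 0.24 (B) on the log2 scale within the sides. ESRP1 had 118, 135 and 132 CPM with vehicle and 135, 112 and 111 CPM with DOX, which overlapped too (log2 fold change -0.13, SE 0.104, adjusted p = 0.465 by edgeR). It was higher in side B, at 132 to 135 CPM against 111 to 118 CPM, with differences of -0.07 (A) and 0.02 (B) on the log2 scale. EPCAM had 105, 237 and 213 CPM with vehicle and 223, 109 and 118 CPM with DOX, which overlapped (log2 fold change -0.32, SE 0.391, adjusted p = 0.622 by edgeR). Its values were higher in side B and differed with DOX by 0.11 (A) and -0.01 (B) on the log2 scale within the sides. None of the 3 epithelial genes overlapped between the sides, nor did 35.2% of all genes tested in this line, and the sides were drawn from these same values.

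N-cadherin and 3 of the EMT factors followed the sides of the LNCaP-AI samples, between which 35.2% of all genes tested did not overlap. CDH2, which encodes N-cadherin (chr18:27932879-28177946, minus strand), had 0, 325 and 473 counts in vehicle samples 1, 2 and 3 and 360, 0 and 1 in DOX samples 1, 2 and 3. TWIST1 (chr7:19020991-19117636, minus strand) had 0, 100 and 207 counts with vehicle and 136, 0 and 0 with DOX. SNAI2 had 3, 662 and 864 counts with vehicle and 651, 6 and 3 with DOX. In each case the same 3 samples, vehicle 1, DOX 2 and DOX 3, were at or near the floor and the other three were not. ZEB2 was low throughout but had the same layout, with 0, 16 and 26 counts with vehicle and 17, 0 and 0 with DOX. MIR205HG had it as well, with 0, 57 and 85 counts with vehicle and 60, 0 and 0 with DOX. SNAI1 differed less, from 3.77 to 5.13 CPM in side A and from 6.15 to 8.67 CPM in side B, with differences with DOX of -0.39 (A) and -0.08 (B) on the log2 scale. Among VIM, ZEB1 and MIR200CHG the sides overlapped, and ZEB1 was at 6 to 10 counts in all 6 samples and was not tested. For CDH2, TWIST1, SNAI2 and ZEB2 the fitted log2 fold changes with DOX lay between -1.28 and -1.17 with standard errors from 1.56 to 2.27, and no call was made.

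Other genes were read by side as well, against the 35.2% of all 16030 genes that did not overlap, 3435 higher and 2209 lower in side B. Of 4 basal prostate markers, 3 were higher in every side B sample, and the summed level of the 4 ranged from 1.16 to 52.4 CPM among vehicle and from 4.17 to 42.3 CPM among DOX samples. Of 24 tested genes of the mesenchymal cytoskeleton and cell surface, 18 were higher and 2 lower in every side B sample, or 83.3% in all, and of 27 matrix genes 20 were higher and 1 lower, or 77.8%. Among 22 further EMT factors, a list that also holds ID1, ID2, ID3, YAP1 and WWTR1, 14 were higher in side B and 0 lower, or 63.6%. The list was not split by whether a gene promotes or opposes EMT. Among 38 epithelial adhesion and junction genes the split was 8 higher and 6 lower, and their 36.8% lay near the share of all genes. Of 18 epithelial transcription and splicing regulators, 6 were higher and 5 lower in every side B sample, or 61.1%, without a common direction. The part of the sides in the LNCaP-AI results was not tested beyond the values given.

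An interaction term fitted to the 12 samples asked whether the DOX effect differed between the lines. Of the 10 genes, 4 had an adjusted p under 0.05, where 9.18% of all 16800 genes did. CDH2 and TWIST1 had no counts in DU-145, so their DOX effect there could not be estimated. The DOX effect in DU-145 exceeded that in LNCaP-AI by 1.31 on the log2 scale for ESRP1 (SE 0.159, adjusted p = 0.00136 by edgeR) and by 1.11 for CDH1 (SE 0.2, adjusted p = 0.00812 by edgeR). VIM differed the other way, by -1.53 (SE 0.11, adjusted p = 9.54e-05 by edgeR), since it fell in DU-145 and rose in LNCaP-AI. These 3 held in all 12 fits that left out a sample. Against a log2 threshold of 0.5, CDH1 lost its call (adjusted p = 0.0734 by edgeR). With the replicate number as a block, CDH1 (adjusted p = 0.107) and ESRP1 (adjusted p = 0.0541) were not called by edgeR. EPCAM differed by 1.82 (SE 0.436, adjusted p = 0.0284 by edgeR) but lost its call in 10 of the 12 fits that left out a sample, with an adjusted p of up to 0.0756. The LNCaP-AI effect of EPCAM in its own fit was -0.32, against 0.11 (A) and -0.01 (B) within the sides. The differences for ZEB1 (-0.99, adjusted p = 0.143), ZEB2 (-1.28, adjusted p = 0.66), SNAI1 (0.61, adjusted p = 0.352) and SNAI2 (2.61, adjusted p = 0.505) were not called by edgeR, so for ZEB1, ZEB2 and SNAI2 a call in DU-145 only does not show a different response.

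At baseline the lines stood far apart, and since they were kept in different media, line and medium cannot be told apart. With vehicle, 7 of the 8 genes tested differed between DU-145 and LNCaP-AI, where 65.1% of all 15628 genes did, 30.2% as higher and 35% as lower in DU-145. VIM was 31.9-fold higher in DU-145 (SE 0.104 on the log2 scale, adjusted p = 1.76e-06 by edgeR), at 876 ± 28.8 CPM against 28.2 ± 1.87 CPM (SD, n = 3 each). ZEB1 was 118-fold higher (log2 difference 6.88, SE 0.187, adjusted p = 2.08e-06 by edgeR), at 36.8 ± 3.99 against 0.312 ± 0.0405 CPM (SD, n = 3 each). ZEB2 was higher by 2.87 (log2, SE 0.745, adjusted p = 0.0115 by edgeR). Against LNCaP-AI vehicle 2 and vehicle 3 its difference in mean log2 CPM was 2.13, while vehicle 1 was at 0 counts. All 3 genes were higher in every DU-145 vehicle sample than in any LNCaP-AI vehicle sample.

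CDH1 and ESRP1 were higher in LNCaP-AI. CDH1 was 22.3-fold lower in DU-145 (log2 difference -4.48, SE 0.167, adjusted p = 3.54e-06 by edgeR), at 24.2 ± 0.905 against 553 ± 109 CPM (SD, n = 3 each). ESRP1 was 26.3-fold lower (log2 difference -4.72, SE 0.129, adjusted p = 2.08e-06 by edgeR), at 4.73 ± 0.584 against 128 ± 9.3 CPM (SD, n = 3 each). After DOX, DU-145 samples reached at most 66.9 CPM of CDH1 and 11.9 CPM of ESRP1, below every LNCaP-AI sample. MIR200CHG, with 7 counts over the DU-145 vehicle samples and 160 over those of LNCaP-AI, was higher in LNCaP-AI by a ratio of 11.1 (exact 95% binomial interval 5.27 to 28.1, for counting error only).

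The remaining baseline differences lost their call in some fits, were not called or not tested, or followed the sides. EPCAM was lower in DU-145 by 0.83 on the log2 scale (SE 0.274, adjusted p = 0.0314 by edgeR), but LNCaP-AI vehicle 1, at 105 CPM, was level with the DU-145 samples at 96.8 to 104 CPM, and 5 of 6 fits without a sample lost the call. Without LNCaP-AI vehicle 1 the difference was -1.18 (adjusted p = 6.58e-11 by edgeR). SNAI1 was lower in DU-145 by 0.74 on the log2 scale (SE 0.253, adjusted p = 0.0342 by edgeR) and lost its call without any 1 of the DU-145 samples or LNCaP-AI vehicle 3, with an adjusted p of up to 0.132. Over the fits without a sample, the log2 difference of SNAI1 stayed between -0.98 and -0.57 and that of EPCAM between -1.18 and -0.69. The calls over all genes fell in these fits too, from 10180 to between 7762 and 9938. SNAI2 was not called (log2 difference -2.76, adjusted p = 0.0946 by edgeR). It was lower in DU-145 than in LNCaP-AI vehicle 2 and vehicle 3, by 3.37 on the log2 scale, while vehicle 1 was at the floor with 3 counts. CDH2 and TWIST1, at 0 in DU-145, were at least 42.2-fold and at least 15.6-fold higher in the mean of the LNCaP-AI vehicle samples by the floor of 3 counts per library, although LNCaP-AI vehicle 1 was at 0 for both.

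**Figure D3:**
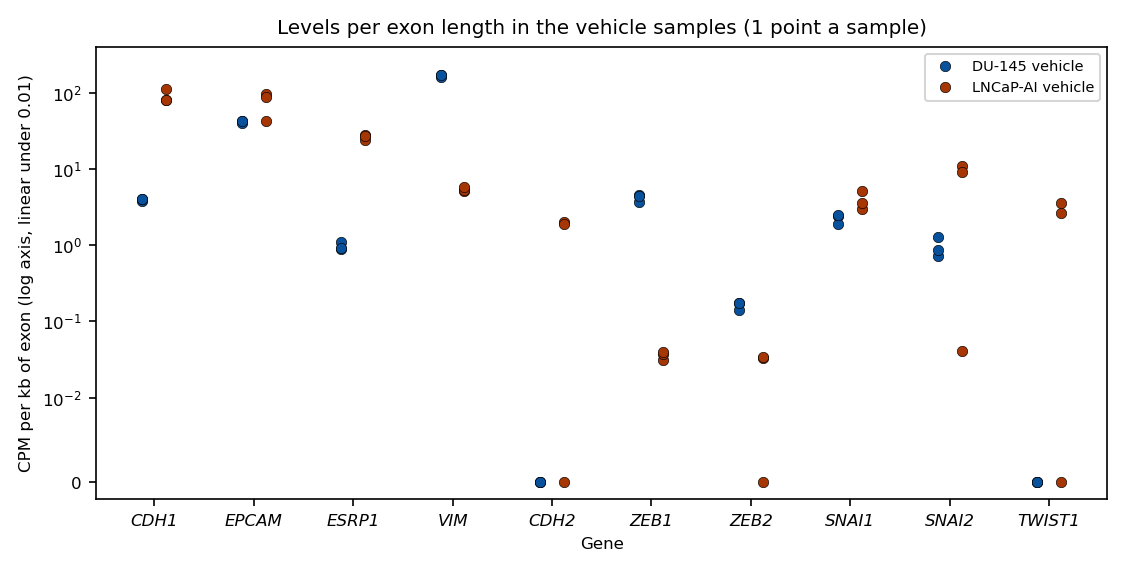
Level of each gene per kb of exon in the 3 vehicle samples of DU-145 (blue) and LNCaP-AI (brown), on an axis that is logarithmic above 0.01 CPM per kb, with 1 point for each sample. VIM, ZEB1 and ZEB2 are higher in every DU-145 sample, CDH1 and ESRP1 in every LNCaP-AI sample, and 1 LNCaP-AI sample lies at or near 0 for CDH2, ZEB2, SNAI2 and TWIST1.

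Genes were compared with each other only per length, as CPM per kb of all annotated exons of the gene. These lengths, such as 5176 bases for VIM, 2430 for EPCAM and 26151 for ZEB2, are not those of a single transcript. The order between genes depends on this choice, and other lengths were not tested. In DU-145 vehicle samples VIM led at 169 ± 5.56 CPM per kb, followed by EPCAM at 41.9 ± 1.75 (SD, n = 3 each). ZEB1, at 4.25 ± 0.462, and CDH1, at 3.98 ± 0.149 CPM per kb, came next and did not differ beyond their spread. SNAI1 (2.27 ± 0.327) stood above ESRP1 (0.971 ± 0.12) and SNAI2 (0.955 ± 0.289), which overlapped, and ZEB2 was at 0.163 ± 0.0172 CPM per kb. With DOX the order on this measure changed in DU-145. EPCAM (119.7 ± 9.91) and VIM (114 ± 8.89) now overlapped at the top, CDH1 stood alone at 10 ± 1.31, and SNAI1, SNAI2, ZEB1 and ESRP1 lay together between 2.24 and 2.56 CPM per kb.

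LNCaP-AI had another order. With vehicle CDH1 (91.1 ± 17.9) and EPCAM (76.2 ± 28.9) led without differing beyond their spread, and ESRP1 followed at 26.3 ± 1.91 CPM per kb (SD, n = 3 each). The order of the first pair differed by sample, with CDH1 at 112 and EPCAM at 43.3 CPM per kb in vehicle 1, and EPCAM above CDH1 in vehicle 2 (97.5 against 81.4) and vehicle 3 (87.7 against 80.1). VIM was at 5.44 ± 0.362 and SNAI1 at 3.9 ± 1.07 CPM per kb. SNAI2, TWIST1 and CDH2 had means of 6.65, 2.09 and 1.31 CPM per kb with a spread nearly as large, vehicle 1 being at or near 0. ZEB1 and ZEB2 were last, at 0.036 ± 0.00468 and 0.0224 ± 0.0194 CPM per kb. With DOX VIM stood at 10.6 ± 0.468 CPM per kb.

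Lists of other genes of these programs were read beside the members. In DU-145 their counts stand against the 51.5% of all genes called with DOX, 26.3% higher and 25.3% lower. In DU-145, epithelial adhesion and junction genes rose more often than they fell with DOX, 19 of 36 tested being called higher and 4 lower by edgeR, with a median log2 fold change of 0.27 against 0.00 over all genes. SPINT1, a membrane-bound inhibitor of serine proteases, rose from 32 ± 0.314 to 87.3 ± 6.12 CPM (SD, n = 3 each). CLDN1, a tight junction claudin, rose from 204 ± 19.4 to 436 ± 32.5 CPM. All 4 pan-epithelial markers, the keratins KRT8, KRT18 and KRT19 together with EPCAM, were called higher. The epithelial regulators did not move as a group, with 2 higher and 4 lower of 12, near the share of all genes, and a median of -0.11.

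Mesenchymal genes were divided in DU-145. Of 20 tested genes of the cytoskeleton and cell surface, 12 were lower and 4 higher, with a median log2 fold change of -0.28. TPM2, a tropomyosin, fell from 7.76 ± 2.59 to 2.91 ± 0.613 CPM (SD, n = 3 each). Of 23 matrix genes 9 were lower and 6 higher, with a median of 0.03. FSTL1, a secreted glycoprotein, fell from 8.6 ± 0.256 to 2.21 ± 0.435 CPM, and FBN1, which encodes fibrillin, from 3.36 ± 0.613 to 1.17 ± 0.281 CPM. LOX, which crosslinks collagen, rose from 12 ± 1.56 to 33 ± 4.42 CPM, and PLAUR, the urokinase receptor, from 52.9 ± 3.94 to 159 ± 12.7 CPM. Among 19 genes of the mixed list of further EMT factors 6 were higher and 5 lower (median -0.16), again near the share of all genes. In the fit of all 12 samples the called genes fell from 16 to 2 in the cytoskeleton list, from 15 to 3 in the matrix list, from 11 to 3 among the EMT factors and from 6 to 2 among the epithelial regulators. The count of the adhesion list did not move by over 1.5 times. Calls over all genes fell as well in that fit, from 7033 to 4083. ID2, a helix-loop-helix protein without a DNA-binding region, fell from 53.1 ± 4.92 to 16 ± 2.8 CPM, and RUNX2, a bone-forming factor, from 2.11 ± 0.749 to 0.641 ± 0.217 CPM. HMGA2, a chromatin protein of embryonic cells, rose from 6.38 ± 0.876 to 14.3 ± 0.945 CPM.

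**Figure D4:**
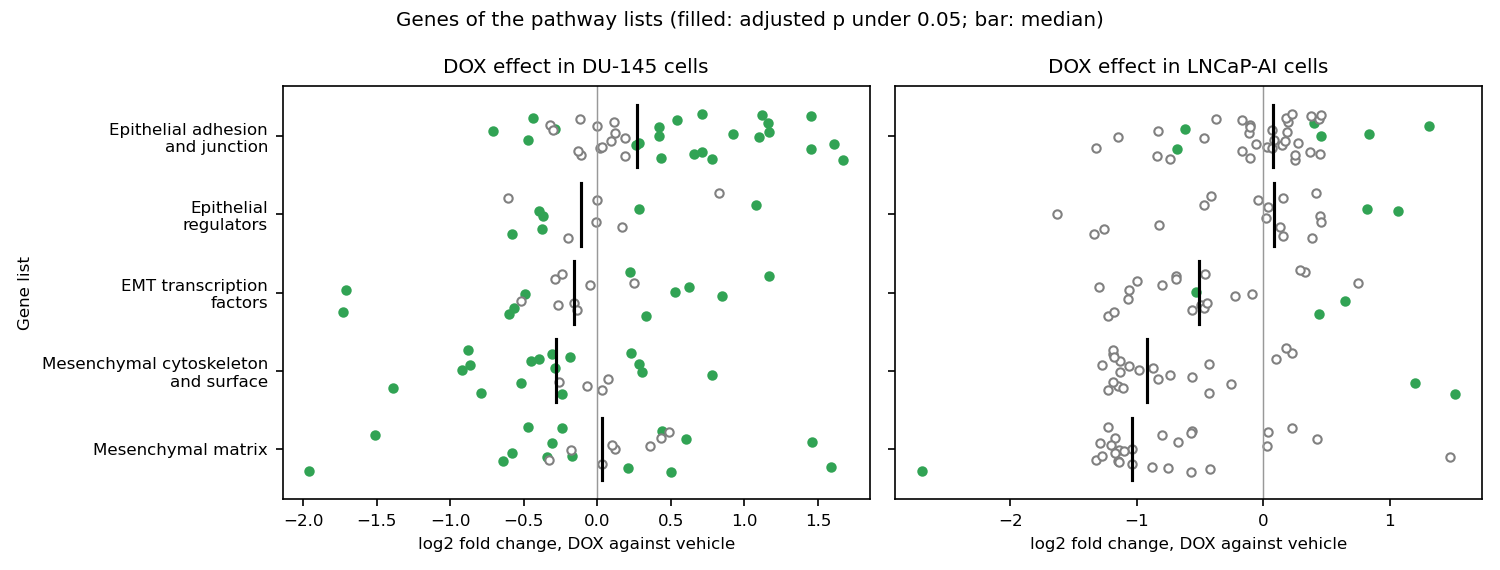
Log2 fold change with DOX of each tested gene in 5 lists of epithelial and mesenchymal genes, in DU-145 (left) and LNCaP-AI (right), with filled points for an adjusted p under 0.05 and a bar at the median of each list. In DU-145 the median of the adhesion list is 0.27 and that of the mesenchymal cytoskeleton list is -0.28, and in LNCaP-AI most mesenchymal genes lie below 0 without a call.

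In LNCaP-AI few genes of these lists were called with DOX, where 12.7% of all genes were, 7.22% higher and 5.52% lower. All calls in the 5 epithelial and mesenchymal lists were lost from the edgeR fit when DOX 2 or DOX 3 was left out. Each of those fits called only 1 of all genes, against 2043 in the main fit, so the loss is not particular to these lists. The adhesion list had 4 higher and 2 lower of 38 (median 0.08) and the epithelial regulators 2 higher and 0 lower of 18 (median 0.09). CLDN4, a claudin, rose from 111 ± 26.2 to 281 ± 37.9 CPM (SD, n = 3 each), by 1.10 (A) and 1.30 (B) on the log2 scale within the sides. The mesenchymal lists had medians of -0.92 (cytoskeleton and surface, 2 higher and 0 lower of 24) and -1.04 (matrix, 0 higher and 1 lower of 27), against -0.05 over all genes. Side A, where most of these genes were lower, holds 2 of the 3 DOX samples and 1 of the 3 vehicle samples. With the side as a covariate, where 39.1% of all genes were called, 2 cytoskeleton genes were higher and 4 lower, and 1 matrix gene was higher and 4 lower. In that fit the adhesion list had 10 higher and 6 lower of 38. The epithelial regulators had 5 higher and 3 lower of 18, and the further EMT factors 4 higher and 6 lower of 22. Without the covariate, the called rises in the cytoskeleton list were of ACTA2 and CALD1. ACTA2, the actin of smooth muscle, rose from 0.85 ± 0.231 to 2.51 ± 0.228 CPM. CALD1, caldesmon, rose beside VIM, from 698 ± 207 to 1643 ± 342 CPM. Within sides A and B the log2 differences were 1.17 and 1.65 for ACTA2 and 0.98 and 1.11 for CALD1. FBLN1, a matrix glycoprotein, fell from 6.75 ± 2.33 to 1.06 ± 0.337 CPM, with log2 differences of -2.80 (A) and -2.77 (B) within the sides. The further EMT factors had 2 higher and 1 lower of 22 (median -0.51), again without the covariate.

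Counts over lists at baseline stand against the 65.1% of all genes called, 30.2% higher and 35% lower in DU-145. The epithelial regulators were mostly lower in DU-145, 13 of 17 tested against 3 higher, with a median log2 difference of -1.82 against -0.06 over all genes. GRHL2, a factor that activates CDH1, had at most 1 count in any DU-145 vehicle sample and 211 ± 33.3 CPM in LNCaP-AI (SD, n = 3). SPDEF, a luminal factor, had at most 5 counts in DU-145 and 35.6 ± 10.4 CPM in LNCaP-AI. FOXA2 (1.47 ± 0.0451 against 0.257 ± 0.128 CPM) and TFAP2A (89.9 ± 7 against 30.5 ± 17.5 CPM) went the other way. The adhesion list was split, with 12 higher and 19 lower of 38 (median -0.41). CLDN7 stood at 2.59 ± 0.119 in DU-145 against 108 ± 6.99 CPM in LNCaP-AI, and AP1M2, a subunit of the epithelial sorting adaptor, had at most 5 counts in DU-145 against 175 ± 33.6 CPM. The desmosomal cadherin DSG2 was higher in DU-145, at 522 ± 44.8 against 238 ± 18.7 CPM.

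The mesenchymal lists were not uniformly higher in DU-145. Cytoskeleton and surface genes had 12 higher and 5 lower of 23 (median 1.39), and the 17 calls became 10 without LNCaP-AI vehicle 2 and 9 without vehicle 3. MYL9, a myosin light chain, was at 156 ± 16.5 in DU-145 against 1.06 ± 0.786 CPM, and TPM1 at 204 ± 1.61 against 61.6 ± 13.5 CPM, while CALD1 was lower, at 36 ± 3.88 against 698 ± 207 CPM (SD, n = 3 each). Matrix genes had 7 higher and 8 lower of 25 (median 0.75). CCN1 and CCN2, secreted matricellular proteins, stood at 473 ± 10.7 and 90.6 ± 2.91 CPM in DU-145 against 43 ± 27.7 and 4.45 ± 3.86 CPM in LNCaP-AI. COL1A1, a collagen chain of fibroblasts, was lower in DU-145, at 2.38 ± 0.529 against 19.2 ± 3.35 CPM. The summed level of 7 fibroblast markers was 2.13 to 3.69 CPM in DU-145 and 21.1 to 28 CPM in LNCaP-AI vehicle samples. COL1A1 is 1 of these 7 and made up most of the sum in both lines, so the sum is not separate from it. The part of this sum in these differences was not tested. The further EMT factors had 9 higher and 4 lower of 22 (median 0.88), and the 13 calls became 8 without LNCaP-AI vehicle 2 or vehicle 3. KLF8 (2.95 ± 0.53 against 0.166 ± 0.132 CPM) and ID2 (53.1 ± 4.92 against 12 ± 0.546 CPM) were higher in DU-145. TCF4, an E-protein with which TWIST1 can pair, had 0 counts in DU-145 vehicle samples and 19.6 ± 0.369 CPM in LNCaP-AI, and SOX4 had 20.2 ± 4.07 against 88.2 ± 6.61 CPM.

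The genes whose log2 CPM followed CDH1 most closely over the 12 samples were RYR2, RABGAP1 and TFR2, with Pearson's r of 0.996, 0.996 and 0.995. Those closest to VIM were TXNRD1, ERAP1 and BACE2, with r of 0.998, 0.997 and 0.997. TXNRD1, thioredoxin reductase, had mean levels of 3018 and 2423 CPM in DU-145 vehicle and DOX samples and 295 and 454 CPM in those of LNCaP-AI, so it fell and rose in the same groups as VIM. These correlations are descriptions over samples that fall into 2 lines, and the difference between the lines sets most of them.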

How the data were processed

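Raw counts per gene were deposited by the authors, without normalization, for 12 samples (stranded mRNA libraries, cells cultured in triplicate). Per the labels, reads were processed with CASAVA 1.8.2, STAR 2.7.0 and DESeq2 1.24.0 on GRCh38.p7. The counter and its treatment of strand and shared reads are not given in the sources used here. Of 58037 identifiers 56948 matched a symbol by Ensembl ID. Genes reaching 10 counts in 3 or more samples of a comparison were tested with edgeR 4.0.16 (TMM, glmQLFit, glmQLFTest) and called where the Benjamini-Hochberg adjusted p over all genes tested was under 0.05, separately for DOX in each line, for the lines with vehicle and, over all samples, for the interaction. Standard errors (SE) were derived as the absolute log2 fold change over the square root of the F statistic of that test. P-values measure the spread between these samples only. No 2 replicates of a group agreed within sampling noise (lowest chi-square per degree of freedom 2.53). The steps were tested on simulated data.

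The members and lists were chosen with earlier results of these data known. From each list, up to 3 called genes per direction and comparison were eligible to be named, by smallest p, if the log2 fold change was 1 or more in either direction and the groups did not overlap. Some genes that meet this rule are not reported here. Positions and exon lengths come from GENCODE 44. Alternatives were DESeq2 1.42.0, its size factors, upper-quartile normalization, other filters, all samples in 1 fit, a replicate block, a log2 threshold of 0.5, leaving out each sample, values within the sides and, added after seeing the data, the side as a covariate.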

Additional observations from a re-analysis of the deposited data

Results flagged for a closer look

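The DOX effect differed between the lines for 4 of the 10 genes, by edgeR's test of the interaction, which called 9.18% of all 16800 genes. Of the 10, CDH2 and TWIST1 had no counts in DU-145, so their effect there could not be estimated. The effect in DU-145 minus that in LNCaP-AI was 1.11 (log2) for CDH1 (adjusted p = 0.00812), 1.31 for ESRP1 (adjusted p = 0.00136), 1.82 for EPCAM (adjusted p = 0.0284) and -1.53 for VIM (adjusted p = 9.54e-05). Every DU-145 DOX sample was above every vehicle sample for the first 3 genes and below for VIM, and for VIM the LNCaP-AI samples were apart in the opposite direction. The value for EPCAM lost its call in 10 of 12 fits that left out a sample. With the replicate number as a block, CDH1 (adjusted p = 0.107) and ESRP1 (adjusted p = 0.0541) were not called by edgeR. CDH1 also lost its call against a log2 threshold of 0.5 (adjusted p = 0.0734 by edgeR).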

How the results depend on the processing

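In DU-145 the number of the 10 genes called was 7 in every alternative run, with 2 exceptions: 6 against a log2 threshold of 0.5, where VIM was lost (adjusted p = 0.368 by edgeR), and 5 in the fit of all samples, where ZEB2 and SNAI2 were lost. None of the 8 fold changes there reversed. At baseline the count was 5 to 10, with CDH2, TWIST1 and SNAI2 added without a filter. In LNCaP-AI the 1 called gene became 0 with the replicate block, and the range over fits without a sample was 0 to 1. The interaction count of 4 became 1 (VIM) with the replicate block and 2 (VIM and ESRP1) against the log2 threshold. Reversed values were EPCAM in LNCaP-AI, 0.02 (adjusted p = 0.9) with the side as a covariate, and the interaction of ZEB2, which ranged from -1.82 to 3.81 without a sample and turned positive without LNCaP-AI DOX 1. The cause was not tested.

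Same-numbered vehicle and DOX samples deviated with correlations of 0.0852, -0.0415 and 0.0372 in DU-145 and -0.933, -0.786 and -0.819 in LNCaP-AI. The numbers thus showed no pairing in DU-145. In LNCaP-AI every same-numbered pair has a sample on each side, so these values restate the sides and cannot show whether the numbers pair samples. With the block, 0 of all genes were called by edgeR in LNCaP-AI, with 2909 at an unadjusted p under 0.05, and 52 for the interaction. Without it the counts were 2043 and 1543. In LNCaP-AI DESeq2 called 3517 genes, the fit of all samples 3933 and the log2 threshold 236. Leaving out a sample gave 1 (without DOX 2 or without DOX 3) to 3538 (without DOX 1). The interaction gave 884 without a filter, 261 against the threshold and 737 to 3471 without a sample. In DU-145 the 7033 calls became 4083 in the fit of all samples and 1541 against the threshold. Counts of called list genes moved by over 1.5 times in 11 of 84 values in DU-145 and in 47 of 90 in LNCaP-AI, where the adhesion list ranged from 0 to 10 without a sample. Low counts (ZEB1 and ZEB2 in LNCaP-AI, MIR200CHG in DU-145) limit what can be seen there.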
